A study of Homo sapiens with 6 samples.

Results

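A group of 10 genes that make and fold airway mucus, or that epithelia secrete against microbes, were followed across the arrays: the gel-forming mucins MUC5B and MUC5AC, the membrane mucins MUC1, MUC4 and MUC16, the folding factor AGR2 and its relative AGR3, and the defence proteins DEFB1, LCN2 and SLPI. Every probe set that the platform annotation gives to 1 of these 10 genes alone was taken, which came to 22 probe sets of the 41091 with a single gene, and to 10 of the 19775 genes measured. The genes were chosen by their intensities and DOX changes on these same arrays, with DEFB1 and AGR2 known to be among the knockdown calls, so their changes with doxycycline are described here and not tested.

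The cells were A549, a human lung adenocarcinoma line, carrying a tetracycline-inducible hairpin brought in by lentivirus. The groups were the lines A549-T-shCNOT3-1 and A549-T-shCNOT3-2, with hairpins to different CNOT3 sequences, given doxycycline (DOX, 1 ug/ml, 72 hours, n = 2), the same lines without DOX (n = 2), the non-targeting line A549-T-shNTC with DOX (n = 1) and A549-T-shNTC without DOX (n = 1). All lines came from the same parental cells and carried a hairpin whether or not it was induced. Whether a line is a clone or a pool is not given in the sources used here, and no repeat culture is described, so the spread below is between 2 hairpins, 1 array each. CNOT3 is a subunit of CCR4-NOT, the complex that shortens poly(A) tails of mRNA.

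Mucus is built in the endoplasmic reticulum and Golgi of secretory cells. Gel-forming mucins such as MUC5B and MUC5AC are very large, heavily O-glycosylated proteins that are joined by disulfide bonds and stored in granules, while membrane mucins stay anchored at the cell surface. AGR2 is an endoplasmic reticulum protein of the disulfide isomerase family, needed in mice for intestinal mucin production. DEFB1 is an antimicrobial peptide made constitutively by epithelia, LCN2 withholds iron from bacteria by binding siderophores, and SLPI inhibits neutrophil elastase. NF-kB signalling is a known inducer of LCN2.

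On these arrays DEFB1 and AGR2 were lower with DOX in both shCNOT3 lines, to about the same degree in each. In shNTC the log2 change with DOX was -0.25 for DEFB1, and -0.02 and 0.29 on the AGR2 probe sets. MUC5B was also lower in both shCNOT3 lines, but mostly in shCNOT3-2. LCN2 and SLPI went opposite ways in the shCNOT3 lines and were lower with DOX in shNTC. MUC1 and MUC5AC depended on the line or on the probe set, and MUC4, MUC16 and AGR3 were too dim to be read. Intensities below are the deposited linear values, compared within a probe set except in the marker sums and RNA quality ratios. A log2 change is log2(intensity + 1) with DOX minus without DOX in the same line.

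Some facts of all the arrays bear on these values. CNOT3 read 81.9 with and 227 without DOX in shCNOT3-1, 46.9 with and 228 without in shCNOT3-2, and 166 with and 178 without in shNTC. On another CNOT3 probe set the log2 change was -2.13 in shCNOT3-1, -2.22 in shCNOT3-2 and -1.43 in shNTC. All 6 epithelial markers (EPCAM, CDH1, KRT7, KRT8, KRT18 and KRT19) were above the filter level, while of 5 goblet markers SPDEF and FCGBP were, of 4 club cell markers none was, and of 5 measured alveolar type 2 markers 4 were. The summed intensity of the goblet markers was 398 and 720 on the shCNOT3 arrays with DOX, against 778 to 923 on the others. SPDEF was the largest part of each sum, at 207 and 409 on the former and 516 to 713 on the latter. Of these markers SPDEF was lower with DOX for either hairpin, as were TFF3 and BPIFB1, both below the filter. On the log2 scale TFF3 changed by -0.50 in shCNOT3-1, -1.45 in shCNOT3-2 and 1.63 in shNTC, and BPIFB1 by -0.05, -0.26 and 0.87. The goblet markers did not move together, however. FCGBP changed by 0.07 in shCNOT3-1, -0.07 in shCNOT3-2 and -1.30 in shNTC on the log2 scale, and CLCA1, below the filter, by 1.45, 2.40 and -1.39. Sums of the fibroblast markers (2 of 5 above the filter) were 571 and 754 against 445 to 585, and of the haematopoietic markers (1 of 4) 300 and 387 against 273 to 312. RNA quality was read from ACTB, whose 3' probe set over its 5' one gave 1.42 and 1.45 with DOX in the shCNOT3 lines, 1.33 and 1.36 without, and 1.47 with and 1.58 without DOX in shNTC. The same ratio for GAPDH was 1.03 and 1.05 with DOX in the shCNOT3 lines, 0.980 and 1.09 without, and 0.966 with and 0.980 without DOX in shNTC, so it was higher with DOX in shCNOT3-1 and lower in shCNOT3-2. The part of these shifts in the results was not tested, and in a bulk culture fewer cells of a type and less RNA per cell cannot be told apart.

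The filter level was an intensity of 61.4, the median over all probe sets, applied to a probe set's mean. Of the 22 probe sets 11 were above it, and they covered 7 of the 10 genes. Below that level 42.0% of all single-gene probe sets differed at least 2-fold between the shNTC arrays, where no CNOT3 hairpin was present, against 4.89% above it and 0.916% where the mean log2 intensity was 10 or more. The probe sets of DEFB1 and SLPI and the brighter AGR2 probe set were in that last range.

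AGR2 was bright on all arrays. It read 5108 with DOX and 10483 without in shCNOT3-1. The shCNOT3-2 arrays gave 7521 with DOX and 14407 without. In shNTC it read 18407 with and 18658 without DOX. The shCNOT3 arrays with DOX were the lowest 2 of the 6, and the next lowest was shCNOT3-1 without DOX. The log2 change averaged -0.99 ± 0.07 (SD over hairpins, n = 2), which left 48.7% and 52.2% of the intensity without DOX in the same line, against -0.02 in shNTC. A second AGR2 probe set read 345 with and 678 without DOX in shCNOT3-1, 473 with and 740 without in shCNOT3-2, and 1296 with and 1060 without in shNTC. It placed the arrays in nearly the same order, with a mean change of -0.81 ± 0.23 (SD, n = 2) and 0.29 in shNTC. Lines also differed without DOX: the 3 arrays spanned 0.83 on the log2 scale on the brighter probe set and 0.64 on the other, so the difference between uninduced lines was nearly as large as the change with DOX.

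AGR3, a paralog of AGR2 of the same isomerase family, lies beside it on chromosome 7 with no other protein-coding gene between them in the RefSeq annotation of GRCh38.p14. Its single probe set read 43.3 with and 5.61 without DOX in shCNOT3-1, 3.19 with and 15.0 without in shCNOT3-2, and 2.00 with and 34.7 without in shNTC. All of these were below the filter level, the directions differed between lines, and no change can be read from them. The start regions of this pair are printed because they are neighbours of which only AGR2 was measurable. They are RefSeq windows of GRCh38.p14 from 250 bases before to 50 bases after the annotated start, on the minus strand at chr7:16804950-16805249 (AGR2) and chr7:16881934-16882233 (AGR3), and capitals mark the letters ATAAAT.
AGR2: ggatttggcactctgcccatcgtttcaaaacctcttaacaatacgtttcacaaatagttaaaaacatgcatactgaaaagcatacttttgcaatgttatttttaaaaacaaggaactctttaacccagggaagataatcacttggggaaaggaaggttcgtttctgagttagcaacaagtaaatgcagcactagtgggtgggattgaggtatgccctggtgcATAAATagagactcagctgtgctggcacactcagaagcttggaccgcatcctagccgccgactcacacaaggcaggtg
AGR3: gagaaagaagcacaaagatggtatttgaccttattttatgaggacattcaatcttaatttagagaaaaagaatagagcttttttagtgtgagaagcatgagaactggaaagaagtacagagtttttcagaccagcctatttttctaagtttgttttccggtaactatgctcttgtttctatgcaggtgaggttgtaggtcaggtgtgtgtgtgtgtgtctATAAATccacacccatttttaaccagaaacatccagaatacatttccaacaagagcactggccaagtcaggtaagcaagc
The first of the capital letters lay 28 bases before the start in AGR2 and 30 in AGR3, a place where TATA boxes are often found. ATAAAT was chosen after these windows were read. On either strand it is in 12.6% of all 35116 windows of that length, and among the 6 members with a window (MUC1, MUC4, MUC16, AGR2, AGR3 and LCN2) it was in AGR2, AGR3 and LCN2. The letters TGTTTAC, a core of FOXA factor motifs, were in none of these windows and in 3.42% of all.

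DEFB1 had the largest log2 difference, averaged over the hairpins, of the 7 measurable genes. It read 1071 with and 3207 without DOX in shCNOT3-1. In shCNOT3-2 it read 1325 with and 4238 without. In shNTC it read 3455 with and 4097 without. The shCNOT3 arrays with DOX were far below the 4 others, which lay between 3207 and 4238. The change was -1.58 and -1.68 by hairpin, a mean of -1.63 ± 0.07 (SD, n = 2), which left 33.4% and 31.3%, against 84.3% left in shNTC. Between the uninduced lines DEFB1 spanned 0.40 on the log2 scale. A single probe set carried the gene.

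In limma (Benjamini-Hochberg adjusted p under 0.05 over 12630 genes) 15 genes were called lower with knockdown, or 0.119% of those tested, and 13 higher, or 0.103%. The knockdown term compares the shCNOT3 lines with and without DOX, and the shNTC change is not subtracted. In the fit for the change beyond shNTC 0 genes were called. AGR2 and DEFB1 were 2 of the 15, and no member was called higher. The AGR2 call ended without shCNOT3-1 (-0.94), without shCNOT3-2 (-1.04), with the mean of its probe sets (-0.90), with no filter on dim genes and for the change beyond shNTC (-0.97). With a hairpin left out the knockdown rests on 1 array with DOX and 1 without, and the fit takes its spread from the shNTC pair and from genes of like intensity. The DEFB1 call ended for the change beyond shNTC (-1.38), and both ended without an intensity trend in the variance. A rule by size alone asked for a change of at least 2-fold with the same sign for both hairpins. The shNTC change in that direction had to be under 0.5 of the smaller hairpin change, and was not subtracted. By this rule 0.428% of tested genes were lower and 0.649% higher. DEFB1 was the 1 member lower by that rule, and none was higher. AGR2 missed that rule because shCNOT3-2 gave -0.94. The members were listed with these calls known, so nothing is read from the counts. Ranked by mean change, DEFB1 was 30th, MUC5B 49th and AGR2 215th from the lowest of 12630.

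**Figure D1:**
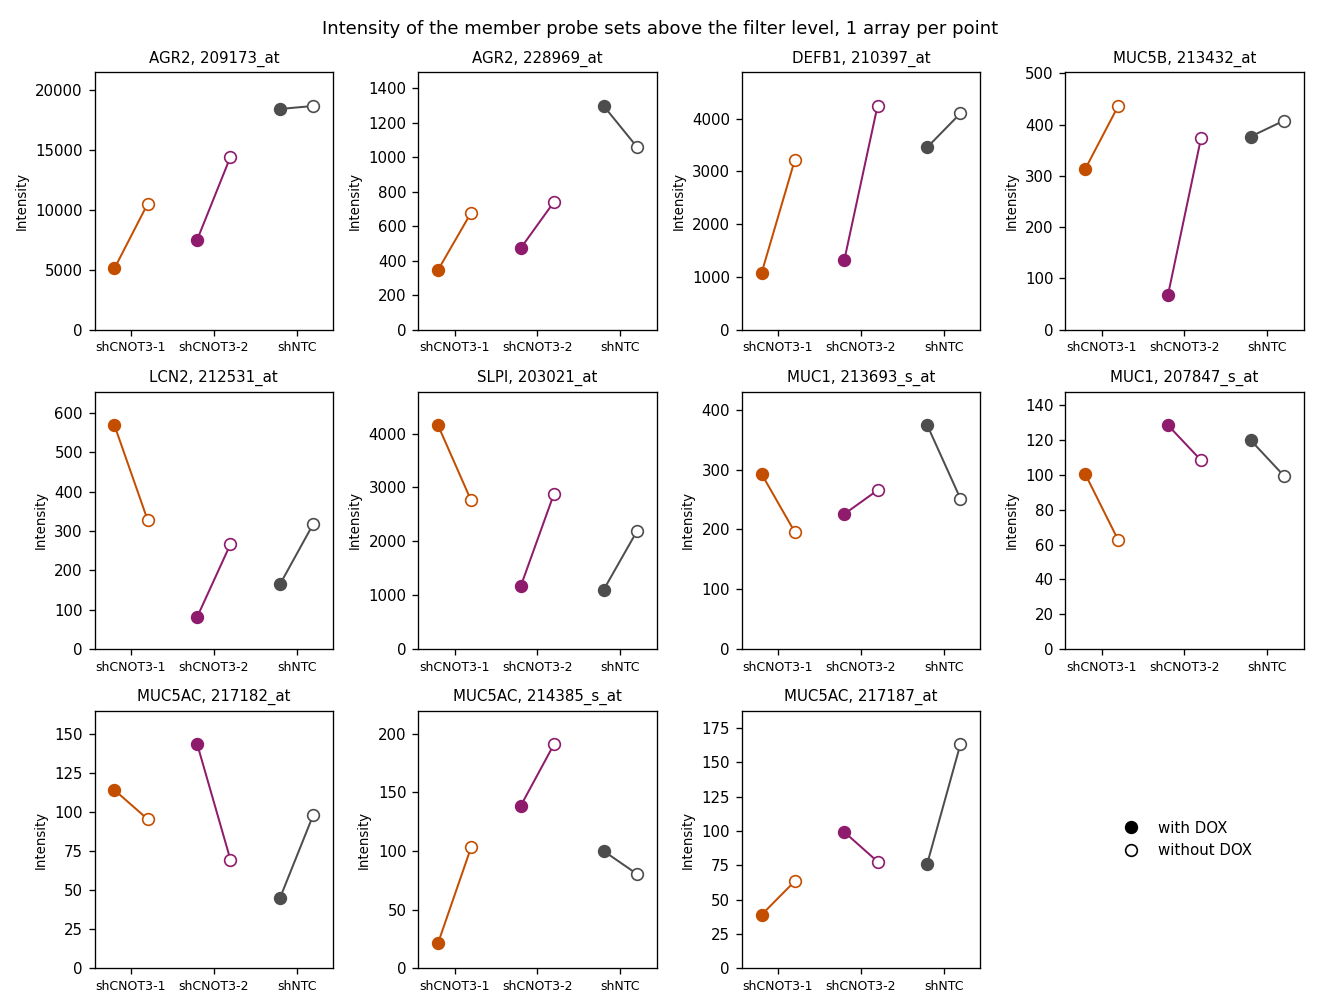
Intensity (linear scale from 0, vertical axis) of the 11 member probe sets above the filter level, with 1 array per point, filled with DOX and open without, joined within a line. AGR2 and DEFB1 are lower with DOX in both shCNOT3 lines, MUC5B mostly in shCNOT3-2 (67.2 against 374), and LCN2 and SLPI are higher with DOX in shCNOT3-1 only.

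MUC5B, the gel-forming mucin needed for airway clearance in mice, had 1 measurable probe set. It read 313 with and 436 without DOX in shCNOT3-1. For shCNOT3-2 it was 67.2 with and 374 without. In shNTC it read 377 with and 408 without. Both shCNOT3 arrays with DOX were below the 4 others, and the uninduced arrays spanned 0.22 on the log2 scale, but the log2 change was -0.48 in shCNOT3-1 and -2.46 in shCNOT3-2. The mean of -1.47 had an SD of 1.40 (n = 2), nearly as large, and shNTC gave -0.11. With the array of shCNOT3-2 left out the change was -0.48, so the size of the mean rests on that line. A dim second probe set read 43.6 with and 32.0 without DOX in shCNOT3-1, 2.61 with and 30.9 without in shCNOT3-2, and 33.6 with and 36.8 without in shNTC, so it was low on the same array and did not repeat the small difference in shCNOT3-1.

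SPDEF, a transcription factor that drives goblet cell maturation and mucin production, was lower with DOX on the same array, and was picked for this comparison after its values were seen. It read 409 with and 516 without DOX in shCNOT3-1, 207 with and 586 without in shCNOT3-2, and 630 with and 713 without in shNTC. The log2 changes were -0.33, -1.49 and -0.18. FCGBP, the other goblet marker above the filter, read 156 with and 148 without DOX in shCNOT3-1, 92.0 with and 97.0 without in shCNOT3-2, and 41.6 with and 104 without in shNTC, so it did not follow SPDEF or MUC5B.

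MUC5AC, the other gel-forming mucin of the airway, lies directly beside MUC5B on chromosome 11 in the RefSeq annotation, and is measured by 4 probe sets that disagreed. Its brightest probe set read 114 with and 95.7 without DOX in shCNOT3-1. In shCNOT3-2 it read 144 with and 69.6 without, and in shNTC 45.2 with and 98.3 without. The shCNOT3 arrays with DOX were the highest 2 of the 6 there, with a mean change of 0.64 ± 0.55 (SD, n = 2) and -1.10 in shNTC. A probe set of nearly equal mean brightness gave -2.23 and -0.46 in the shCNOT3 lines and 0.31 in shNTC. Another gave -0.69, 0.35 and -1.09, and the last was below the filter. Of the 7 measurable genes MUC5AC, on its brightest probe set, was the 1 at least 2-fold lower with DOX in shNTC, as 2.19% of tested genes were. The direction of the MUC5AC mean therefore flipped with the choice of probe set, as it did with 16 or 64 added before log2 (-1.05 and -0.65), which made another probe set the brightest, and with the mean of its probe sets (-0.24).

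In all, 3 of the 7 measurable genes had both shCNOT3 arrays with DOX below the 4 others (12.8% of tested genes). In both shCNOT3 lines 3 members were lower (26.9%) and 1 higher (33.2%). The contrast is the one the list was made from, so these shares are given as background only. The median change of the 7 was -0.45, beside 0.03 for all tested genes. By line it was 0.25 in shCNOT3-1, -1.30 in shCNOT3-2 and -0.25 in shNTC, where all tested genes gave 0.05, 0.02 and -0.01.

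**Figure D2:**
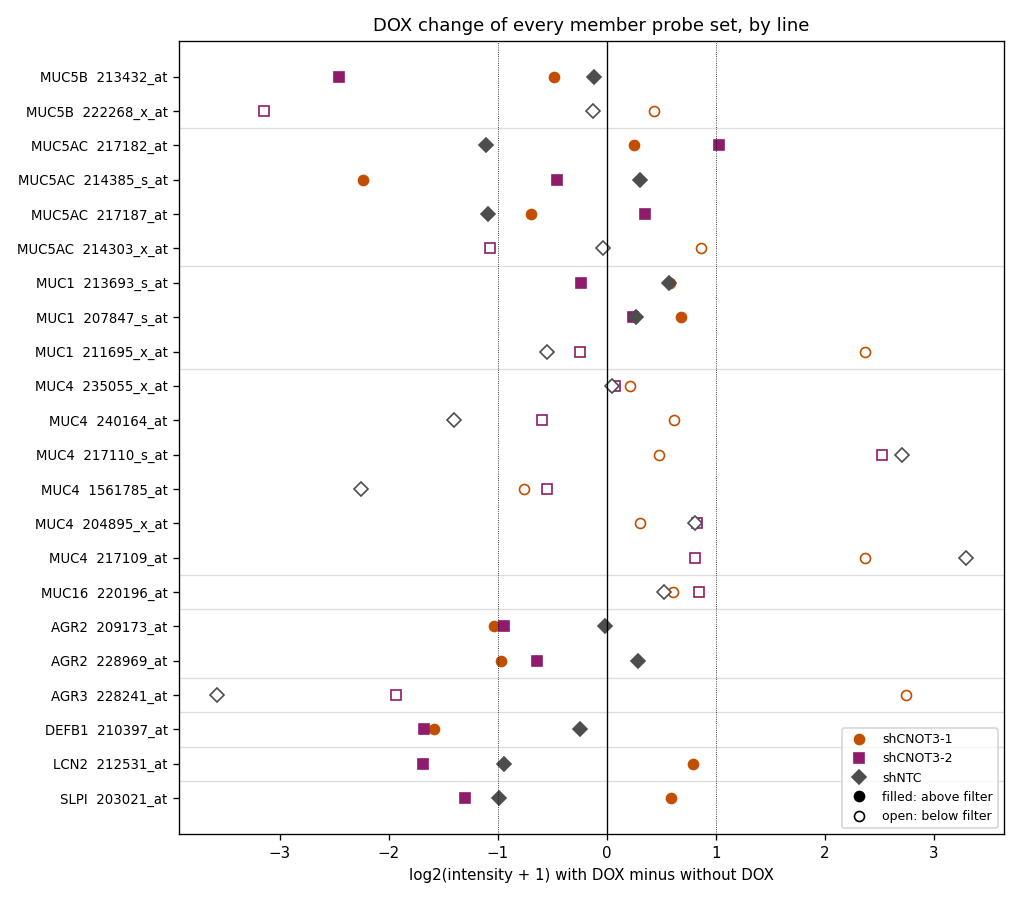
Log2 change with DOX (horizontal axis, intensity + 1, with minus without DOX) of all 22 member probe sets by line, filled above and open below the filter level, with dotted lines at 2-fold. The AGR2 and DEFB1 points of the shCNOT3 lines lie together left of shNTC, while open symbols of MUC4 and AGR3 scatter as widely in shNTC (-3.58 to 3.30) as in the shCNOT3 lines.

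The membrane mucins gave little to read. MUC1, a signalling mucin of epithelial surfaces, read 293 with and 196 without DOX in shCNOT3-1. The shCNOT3-2 arrays read 226 with and 265 without, and in shNTC 374 with and 252 without. The arrays of each group overlapped, and the change was 0.58 in shCNOT3-1, -0.23 in shCNOT3-2 and 0.57 in shNTC. The second MUC1 probe set was higher with DOX in every line, by 0.68, 0.24 and 0.27, so the sign in shCNOT3-2 depended on the probe set. The remaining MUC1 probe set, below the filter, gave 2.37, -0.25 and -0.54. The mean over hairpins on the brightest probe set, 0.17 ± 0.57 (SD, n = 2), turned to -0.40 when the shNTC change was subtracted and to -0.04 with no term for line.

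MUC4, a membrane mucin that binds ERBB2, has 6 probe sets, all below the filter level. The brightest read 81.2 with and 69.6 without DOX in shCNOT3-1, 33.7 with and 32.0 without in shCNOT3-2, and 82.5 with and 79.8 without in shNTC. On that probe set the shCNOT3-2 arrays were the lowest 2, with or without DOX. On another they were the highest 2 (30.4 with and 44.8 without DOX), so no difference between lines is read. In the other 5 the shNTC change ran from -2.25 to 3.30. MUC16, which carries the CA125 antigen, read 8.62 with and 5.29 without DOX in shCNOT3-1, 3.78 with and 1.65 without in shCNOT3-2, and 10.8 with and 7.17 without in shNTC. These levels allow no statement on a change in MUC4 or MUC16.

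LCN2 and SLPI formed a pair with a pattern of their own. LCN2 read 569 with and 328 without DOX in shCNOT3-1. In shCNOT3-2 it read 81.8 with and 266 without, and in shNTC 165 with and 318 without. SLPI read 4155 with and 2757 without DOX in shCNOT3-1. In shCNOT3-2 it read 1168 with and 2880 without, and in shNTC 1099 with and 2182 without. For both genes shCNOT3-1 with DOX was the highest of the 6 arrays, the arrays with DOX of the other lines were the lowest 2, and the uninduced arrays lay between. Log2 changes were 0.79, -1.69 and -0.94 for LCN2 and 0.59, -1.30 and -0.99 for SLPI in shCNOT3-1, shCNOT3-2 and shNTC. The mean over hairpins was -0.45 ± 1.75 for LCN2 and -0.35 ± 1.34 for SLPI (SD, n = 2), smaller than its spread in each case. A change of at least 1.5-fold up in shCNOT3-1 and down in both other lines was seen in 17 of 12630 tested genes (0.135%), LCN2 and SLPI included, but the pattern was described after it was seen. Opposite signs in the shCNOT3 lines, each of at least 1.5-fold, were found in 1.88% of tested genes. Across the 6 arrays their log2 values correlated at r = 0.90, a description over arrays that share lines.

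Neither gene differed much between uninduced lines, where LCN2 spanned 0.30 and SLPI 0.40 on the log2 scale. SLPI without DOX read 2182 to 2880, so the shNTC change to 1099 with DOX was outside that span. The start region of LCN2 is shown for the NF-kB letters near it, in the RefSeq window of GRCh38.p14 on the plus strand at chr9:128149203-128149502. Capitals mark ATAAAT, which begins 29 bases before the start, and a loose NF-kB match, GGG and CC with any 5 bases between, which begins 176 bases before it as GGGAATGTCC and overlaps a match on the other strand.
LCN2: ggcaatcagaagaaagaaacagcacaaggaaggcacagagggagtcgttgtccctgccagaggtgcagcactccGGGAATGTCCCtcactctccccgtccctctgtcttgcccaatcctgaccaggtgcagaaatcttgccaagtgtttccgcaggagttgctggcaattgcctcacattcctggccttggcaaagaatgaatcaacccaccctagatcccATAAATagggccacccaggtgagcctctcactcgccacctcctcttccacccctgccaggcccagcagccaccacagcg
This loose form is in 58.7% of all windows on either strand, and in the windows of 4 of the 6 members that have one (LCN2, MUC1, MUC4 and 1 of the MUC16 windows), AGR2 and AGR3 being the others.

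**Figure D3:**
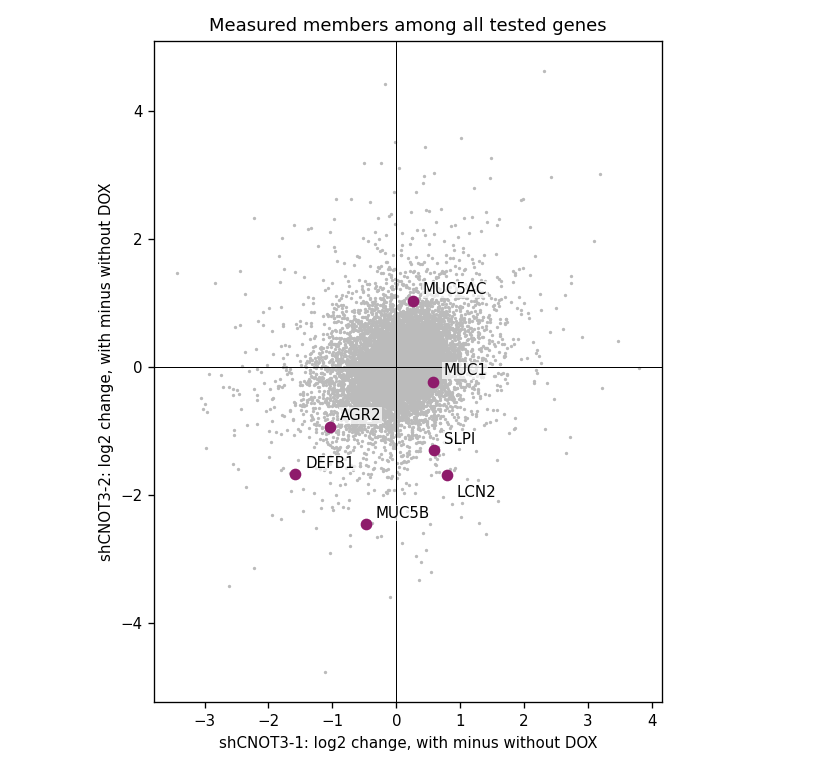
Log2 change with DOX in shCNOT3-1 (horizontal) against shCNOT3-2 (vertical) for 12630 tested genes in grey and the 7 measurable members in purple. DEFB1 (-1.58, -1.68) and AGR2 (-1.04, -0.94) lie near the diagonal, MUC5B (-0.48, -2.46) is low in shCNOT3-2, and LCN2 and SLPI lie where the hairpins had opposite signs.

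Genes with the most similar profile were named for 6 members, those spanning at least 1 on the log2 scale, by Pearson r over the 6 arrays among 3539 genes that did so too. For AGR2 they were C10orf12 (r = 0.99), the insulin receptor substrate IRS2 (0.99) and the phosphodiesterase PDE3A (0.98). IRS2 read 2522 and 3341 with DOX in the shCNOT3 lines against 4320 and 4839 without, and 5193 with and 5866 without in shNTC. For DEFB1 they were the polysialyltransferase ST8SIA4, OGFRL1 and TXNDC16 (all r = 0.99). TXNDC16, which carries thioredoxin-like domains, read 108 and 144 with DOX in the shCNOT3 lines against 242 and 276 without, and 232 with and 265 without in shNTC. AGR2 and DEFB1 themselves correlated at 0.93.

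The nearest profiles to MUC5B were TTR, which encodes transthyretin, KLHL15, a cullin adaptor, and the antisense RNA SLC38A2-AS1 (each r = 1.00). TTR read 76.1 and 27.2 with DOX in the shCNOT3 lines against 104 and 89.5 without, and 94.6 with and 94.3 without in shNTC. For LCN2 they were STAG3L4 (0.99), a probe set annotated to the cell cycle inhibitor gene CDKN2A (0.99) and the transcription factor SOX4 (0.98). The CDKN2A value came from an _x_at probe set that read 20.7 to 189, with a mean near the filter level. Whether it measures CDKN2A RNA was not tested. The nearest profiles to SLPI were PRR15 (0.99), PIGW (0.99), an enzyme of GPI anchor synthesis, and ITPA (0.98), which removes inosine triphosphate. ITPA was bright and read 6763 and 3066 with DOX in shCNOT3-1 and shCNOT3-2 against 4657 and 4672 without, and 3013 with and 4160 without in shNTC. MUC5AC, whose probe sets disagreed, had VANGL2 (0.99), TAC3 (0.99) and CDC42EP2 (0.98) on its brightest probe set only. Each r is the highest found among 3539 genes over 6 arrays that share lines, and is a description.

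The machinery around these proteins was read from 7 gene lists, which were drawn up with earlier results known. No gene of any list passed the limma threshold. In the protein disulfide isomerase family, to which AGR2 belongs, 0 of 15 measurable genes passed, 5 were lower and 0 higher at an unadjusted p under 0.05, where 7.08% of all tested genes were lower and 7.45% higher. In both shCNOT3 lines 10 of the 15 were lower, against 26.9% of tested genes, and the list median was -0.30, beside 0.03 for all genes and 0.16 for the list in shNTC. P4HB, the founding member of the family, read 9224 and 9545 with DOX in the shCNOT3 lines against 13999 and 14355 without, and 14818 with and 14793 without in shNTC. Its change was -0.60 ± 0.13 (SE, limma adjusted p = 0.0911), and 2 other probe sets gave -0.55 and -0.54. TMX4, a membrane-bound member, gave -0.79 ± 0.19 (SE, limma adjusted p = 0.124), with -0.33 from another measurable probe set. TMX3 gave -1.84 in shCNOT3-1 and -0.33 in shCNOT3-2, and 0.21 on average from another probe set, so its size depended on the hairpin and the probe set.

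Among regulators and markers of mucous and secretory cells, 0 of 25 measurable genes passed, and 1 was higher and 5 lower at an unadjusted p under 0.05. FOXA2, a forkhead factor of airway and gut epithelium, read 887 and 896 with DOX in the shCNOT3 lines against 1920 and 1786 without, and 1852 with and 1615 without in shNTC. All shCNOT3 values with DOX were below the 4 others, and the change was -1.05 ± 0.19 (SE, limma adjusted p = 0.0580). A second FOXA2 probe set above the filter gave -1.30 and -0.10. SOX2, a factor of proximal airway progenitors, read 94.2 and 170 with DOX in the shCNOT3 lines against 311 and 337 without, and 491 with and 393 without in shNTC (-1.35 ± 0.28, SE, limma adjusted p = 0.0895). The other SOX2 probe sets, all below the filter, had mean changes of 1.60, 0.31 and -0.99. NKX2-1, a factor of lung identity, gave 0.05 in shCNOT3-1 and 3.12 in shCNOT3-2, where it read 134 with and 14.6 without DOX. The other uninduced arrays read 90.7 (shCNOT3-1) and 87.0 (shNTC), and shCNOT3-1 with DOX read 93.7. The 3.12 therefore rests largely on the low uninduced array of shCNOT3-2, which was under the filter level. The other NKX2-1 probe set, below the filter, was lower with DOX in shCNOT3-1 (-0.894), shCNOT3-2 (-0.985) and shNTC (-1.47). With no term for line FOXA2 (limma adjusted p = 0.0140), SOX2 (0.0294), P4HB (0.0183) and TMX4 (0.0290) passed.

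Enzymes of mucin-type O-glycosylation, which attach and extend the sugars of mucins, had 0 of 21 past the threshold, with 1 higher and 3 lower at an unadjusted p under 0.05 and a median of -0.09. C1GALT1, which makes the core 1 structure, gave -0.57 ± 0.20 (SE, limma adjusted p = 0.251) on its brightest probe set and -1.31 and -1.48 on the other 2. GALNT10, which starts O-glycan chains, gave -0.56 ± 0.19 (SE, limma adjusted p = 0.227), with -0.22 and -0.28 from other probe sets. GALNT12, of the same family, gave 0.56 and another probe set 0.75.

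Other mucins were mostly dim, with 10 of 16 under the filter. None of the 6 measurable ones passed, and none had an unadjusted p under 0.05. The sialomucin CD164, a widely expressed membrane protein, read 6187 and 5102 with DOX in the shCNOT3 lines against 7323 and 6046 without, and 6183 with and 6124 without in shNTC, a change of -0.24 in each hairpin, with -0.12 and 0.21 on average from other probe sets. MUC3A gave 0.30, and 1.35 from a second probe set whose shNTC change was 1.99, and OVGP1 gave -0.24.

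For granule packaging and release 0 of 13 passed, with 1 higher and 1 lower at an unadjusted p under 0.05. SYTL2, a Rab27 effector, gave 0.86 but 1.23 in shNTC. RAB27A, a GTPase of secretory granules, gave -1.26 and -0.25 by hairpin, and its 4 other probe sets had means of -0.44 to -2.23. RAB3D gave -0.06 and -1.01. Of the genes for shedding and partners of membrane mucins, 0 of 13 passed, and EGFR was the 1 gene with an unadjusted p under 0.05. EGFR is on 2 of the lists, and is also the 1 gene counted as higher among the mucous and secretory cell regulators. It gave 0.64 ± 0.19 (SE, limma adjusted p = 0.197), with 0.30 to 0.79 from 3 other measurable probe sets. ADAM17, a sheddase of membrane mucins, gave -0.99 and -0.01, and the sialidase NEU1 gave 0.20 and 0.18.

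Other airway defence secretions were mostly too dim (27 of 39 measured), and 0 of the 12 measurable passed. CCL20, a chemokine with antimicrobial activity, read 1225 and 4809 with DOX in shCNOT3-1 and shCNOT3-2 against 246 and 192 without, and 18.7 with and 189 without in shNTC. It was higher in both shCNOT3 lines (3.47 ± 0.87, SE, limma adjusted p = 0.129) and lower in shNTC, so it followed neither LCN2 nor SLPI, which were lower in shCNOT3-2. It was called without shNTC (limma adjusted p = 0.0163), with no term for line (0.0471) and with 64 added before log2 (0.0469). DMBT1, a mucosal scavenger receptor protein, gave 0.35 and 1.08, and the peptide hormone gene HAMP gave -0.83 and -0.41, neither with an unadjusted p under 0.05.

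**Figure D4:**
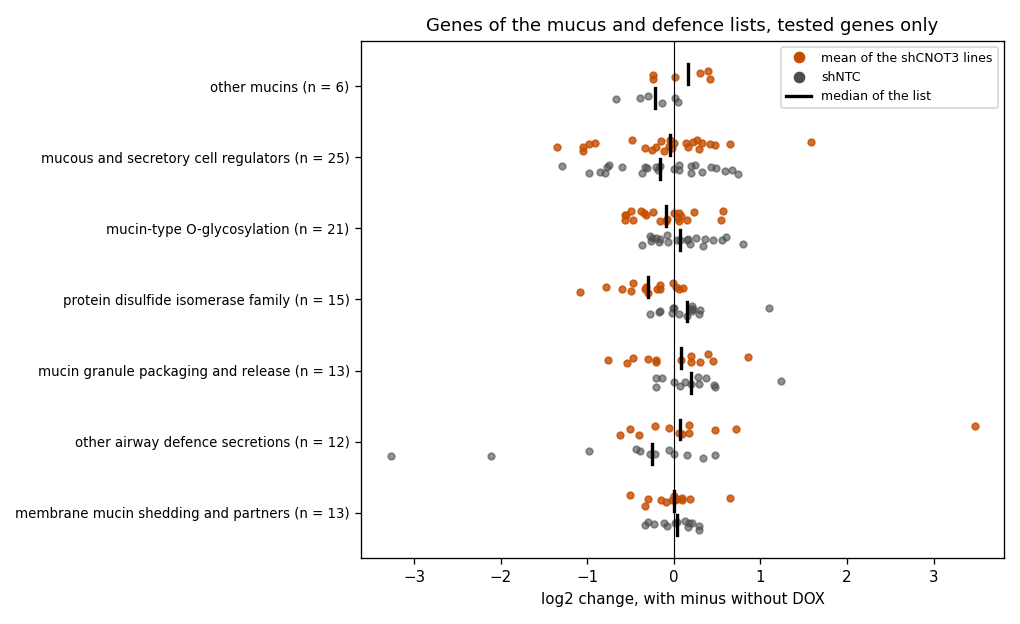
Log2 change with DOX (horizontal axis) of each measurable gene in 7 lists around mucus and airway defence, with the mean of the shCNOT3 lines in orange above shNTC in grey and medians as black bars. The disulfide isomerase median is -0.30 in the shCNOT3 lines and 0.16 in shNTC, while other medians lie between -0.09 and 0.16 in the shCNOT3 lines, and CCL20 stands alone at 3.47 and -3.27.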

How the data were processed

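RNA of 6 cultures (1 array each) was labelled from 500 ng per the labels' protocols. The deposited linear intensity per probe set came from MAS5, per the submitters' processing notes, with settings that the sources used here do not give. A mean trimmed by 2% on either side came to 500.1 for every array, and the lowest value was 1. Precision is limited by the number of arrays, which carry no read depth. The platform annotation gave 41097 probe sets 1 gene and 1801 several, with 11777 unlisted; 41043 symbols were updated by Entrez identifier, and C10orf12 kept its old symbol.

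Values were taken to log2 after adding 1. Each gene was represented by the brightest probe set annotated to it alone, without control probe sets, and 12630 genes at or above the median of all probe sets entered the fit. The fit was made in R 4.3.3 by limma 3.58.1 with an intensity trend in the variance, 2-sided, with line as a block and 1 knockdown term, and was tested on simulated data. Pairing comes from the labels, each line being grown with and without DOX; deviations of the same line correlated at 0.06 across genes. The p-values speak only of the spread among these 6 arrays, which may be technical. Members and lists were chosen with earlier results of these data known. All members were named, with the 3 largest same-sign changes of each list, any called gene, and 3 similar profiles per member. Alternatives covered scaling, the added constant, the filter, the choice of probe set, the block, the variance trend and leaving out lines. Figures used Python 3.11.15 and matplotlib 3.10.9.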

Additional observations from a re-analysis of the deposited data

Results flagged for a closer look

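The 7 measurable members, the named genes of the 7 lists and the genes of similar profile, 46 in all, were checked for shCNOT3 and shNTC changes of opposite sign. For 23 of the 46, both shCNOT3 lines moved one way with DOX and shNTC the other. The list genes were picked for having 1 sign in both shCNOT3 lines, and the genes of similar profile for following a member. The share over all tested genes was not computed, so nothing is read from the count. The values below are the mean log2 change of the shCNOT3 lines minus that of shNTC, and that difference was called for no gene by limma (0 of 12630, with 1061 at an unadjusted p under 0.05). Among the members this was seen for MUC5AC (1.75) on its brightest probe set, with another probe set of the opposite sign. Differences were positive for CCL20 (6.75), NKX2-1 (2.35, mostly from the low uninduced array of shCNOT3-2), DMBT1 (1.10), EGFR (0.97), GALNT12 (0.72), NEU1 (0.49) and MUC3A (0.44). They were negative for SOX2 (-1.67), FOXA2 (-1.25), TMX4 (-1.09), RAB27A (-1.04), GALNT10 (-0.82), C1GALT1 (-0.76), ADAM17 (-0.71), P4HB (-0.60), RAB3D (-0.54) and CD164 (-0.26). Of the genes with a similar profile they were VANGL2 (2.24), CDC42EP2 (1.86), TAC3 (1.78), C10orf12 (-1.14) and TTR (-1.07). The shNTC changes of P4HB, RAB3D, TTR, C10orf12 and CD164 were within 0.02 of 0, so their sign says little. Cell type markers were not among the 46, and of the epithelial ones EPCAM also had opposite signs (-0.47 and -0.37 in the shCNOT3 lines, 0.76 in shNTC), as did the goblet markers CLCA1, TFF3 and BPIFB1, which were below the filter. So did markers of other cell types, of which KRT5 (basal), COL1A1 (fibroblast) and PECAM1 (endothelial) were above the filter. No group had enough arrays to look for a stray one.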

How the results depend on the processing

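AGR2, DEFB1 and MUC5B kept a lower mean change in all 13 alternatives run for each, at -1.28 to -0.90, -1.68 to -1.38 and -2.46 to -0.48. LCN2 and SLPI turned positive without shCNOT3-2 (0.79 and 0.59) and beyond shNTC (0.49 and 0.63), and SLPI with no block (0.08). The count of called genes was 28, and 59 with arrays centred on their medians, 64 with 64 added before log2, 3 with no filter, 54 with a filter at the 60th percentile, 6 with the mean of the probe sets, 57 without shNTC, 39 to 62 without either shCNOT3 line, and 0 in limma without an intensity trend (1547 at an unadjusted p under 0.05) and 0 for the change beyond shNTC (1061). With no replicate block for line it was 191. Genes past the 2-fold rule numbered 136, and 50 with 64 added, 679 with no filter, 88 with the filter at the 60th percentile and 723 to 789 with a single hairpin, where 2 to 3 members passed in place of 1. Of the lists, airway defence secretions had 1 call with 64 added, 1 without the block and 1 without shNTC (CCL20 each time), the mucous regulators 2 and the isomerases 2 without the block, and the isomerases 0 to 1 with a hairpin left out (TMX3, from 1 knockdown pair of arrays). Dim probe sets limit what can be said of MUC4, MUC16 and AGR3. MUC1 has no value without _s_at, _x_at and _a_at probe sets.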
